A study of Homo sapiens with 4 samples.

Results

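Kinesins are the motor proteins that walk along microtubules, most of them towards the plus end, and the genes described here encode these motors together with the light chains and adaptors that tie them to cargo. The members were chosen by name among rows that are protein-coding in GENCODE 29. Each carries, by its Ensembl identifier, a KIF symbol, or CENPE, KLC1, KLC2, KLC3, KLC4, KIFAP3, KIFBP or a KIFC symbol. The rule found 49 genes among the 64252 rows of the count table, with 1 row per symbol. Of these, 42 passed the filter on low counts and were tested, 4 had a count of 0 in every library, and the other 3 had at most 14 counts in a library.

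RNA-seq gene counts came from SK-N-BE(2), an established human neuroblastoma cell line with amplified MYCN. The knockdown group, shCDK5RAP3, held 2 libraries of cells given a short hairpin RNA (shRNA) against CDK5RAP3, and the shControl group held 2 libraries of the same line given a control shRNA. CDK5RAP3 is a component of the machinery that attaches the small protein UFM1 to its targets at the endoplasmic reticulum, and the study's title sets the gene in ER-phagy, the autophagy of that organelle. Both groups share the line and carry a hairpin, and how many hairpin sequences were used against a gene was not given in the sources used here. The labels do not say whether replicates are separate cultures, so the p-values below measure only the spread between these libraries, which may be technical.

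Total counts were 28653689 and 30138393 in the shCDK5RAP3 libraries, and 28721740 and 28755837 in the shControl libraries, so a count of 0 allowed up to 3 counts, at most 0.105 CPM (counts scaled to a common library total), a limit that covers counting error only. CDK5RAP3 itself was at 58.5 and 57.1 CPM in shCDK5RAP3 libraries, against 87.4 and 98.6 CPM in shControl libraries, and fell by 0.69 on the log2 scale (standard error 0.08, adjusted p = 0.000163 in edgeR's quasi-likelihood test). That left 62.1% of the control level. All 9 markers of sympathetic neuroblasts, the cell type the line stands for, were detected, at a summed 5193 and 5358 CPM in shCDK5RAP3 libraries and 8277 and 8740 CPM in shControl libraries, and 8 of the 9 fell. The 6 fibroblast markers summed to 181 and 169.7 CPM in shCDK5RAP3 libraries, against 505 and 484 CPM in shControl libraries, and 5 of the 6 fell. Of all tested genes, 21.8% were lower in the knockdown. Markers of leukocytes, endothelium, epithelium and Schwann cells summed to between 1.19 and 7.53 CPM per list and library, and CD3E, CDH1 and SOX10 were at 0 in all 4 libraries. These marker levels move with every result below, and their part in those results was not tested.

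In a dividing cell, mitotic kinesins build the spindle, carry and align chromosomes and finish cytokinesis, and their messenger RNAs peak around mitosis. In a neuron, members of the kinesin-1, kinesin-2 and kinesin-3 families carry vesicles, organelles and protein complexes along the axon. Neuroblastoma cells are dividing cells of the sympathetic nerve lineage and so make both kinds, and KIF1B, on the short arm of chromosome 1, has been studied as a candidate tumour suppressor in this cancer.

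Kinesin genes moved in both directions in the knockdown. Among the 42 tested members, 17 rose, 8 fell and 17 did not pass the test, an adjusted p of 0.05 over all 18775 tested genes. The rises were led by KIF3B, at 1.72-fold its control level, and KIF2C, at 1.59-fold, and the lowest levels relative to control were those of KIF13B, at 52.1%, and KIFBP, at 53.5%. Over all tested genes 41.5% passed the test, 19.7% higher and 21.8% lower in the knockdown. The members' 59.5% stands beside a higher depth, since tested members had a median level of 62.5 CPM and all tested genes 14.3 CPM. Among genes with at least 1 CPM in 2 libraries 48.5% passed, and among the 41 members at that level 63.4% passed. For 34 of the 42 members no knockdown library lay within the range of the controls or the reverse, 20 of them higher and 14 lower in the knockdown, against 71.4% of all tested genes. The median log2 fold change was 0.05 over the tested members, with a range of -0.94 to 0.78, and within 0.01 of 0 over all tested genes. The kinesin genes summed to 4093 and 4017 CPM in shCDK5RAP3 libraries, against 3971 and 3777 CPM in shControl libraries. In RNA from whole cultures, fewer cells of a type and less RNA per cell cannot be told apart.

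**Figure D1:**
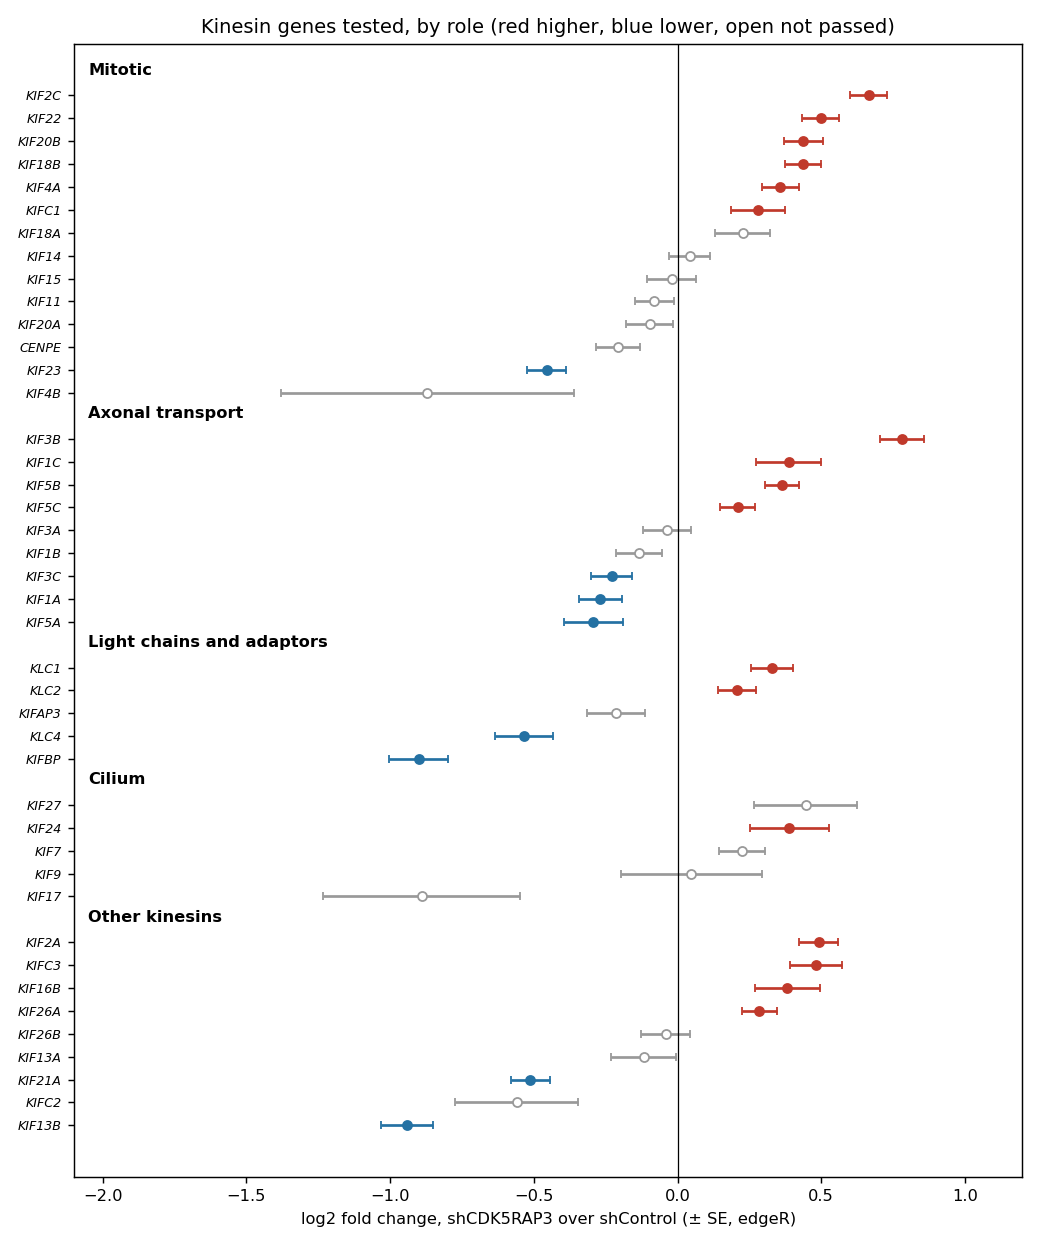
Log2 fold change (shCDK5RAP3 over shControl, with standard error) of the tested kinesin genes, grouped by role. KIF3B at 0.78 and KIF2C at 0.66 stand at the high end, and KIF13B at -0.94 and KIFBP at -0.90 at the low end among the genes that passed the test, and every role except the cilium group holds genes that passed on each side of 0.

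The calls differed in how firmly they stood. Of the 25 genes that passed, 12 did so in every setting tried and with each library left out in turn. These were KIF18B, KIF20B, KIF22, KIF2C, KIF3B, KIF5B and KIF2A, which rose, and KIF23, KIFBP, KLC4, KIF13B and KIF21A, which fell. The other 13 lost the call in at least 1 setting.

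The mitotic list held 15 genes, of which 14 were tested: 6 rose (KIF2C, KIF22, KIF18B, KIF20B, KIF4A and KIFC1), KIF23 alone fell, and 7 did not pass. KIF2C, on chromosome 1 (GRCh38, 44739818 to 44767767, plus strand), encodes a motor that does not walk but strips tubulin from microtubule ends and so frees wrongly attached chromosomes. It was at 189.6 and 181 CPM in shCDK5RAP3 libraries, against 114 and 119.7 CPM in shControl libraries. Both knockdown libraries lay far above both controls, and the rise was 0.66 on the log2 scale (standard error 0.06, adjusted p = 7.13e-05). KIF22, a chromokinesin that binds DNA and pushes chromosome arms outward from the spindle poles, was at 240.5 and 256 CPM in shCDK5RAP3 libraries, against 179 and 173 CPM in shControl libraries (log2 fold change 0.50 ± 0.06, adjusted p = 0.000318). Its groups did not overlap, and here and below ± after a log2 fold change gives the standard error of 2 libraries against 2.

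KIF18B, which shortens the astral microtubules that reach from the spindle poles to the cell cortex, was at 116 and 115 CPM in shCDK5RAP3 libraries, against 86.7 and 84.1 CPM in shControl libraries. KIF20B, a motor of cytokinesis, was at 85.5 and 86.2 CPM in shCDK5RAP3 libraries, against 65.3 and 61.5 CPM in shControl libraries. Each rose 1.35-fold, a log2 fold change of 0.44 (adjusted p = 0.000584 for KIF18B and 0.000909 for KIF20B), with replicates that agree closely within each group. KIF4A, a chromokinesin that shortens the central spindle in anaphase, was at 110.4 and 113 CPM in shCDK5RAP3 libraries, against 85.6 and 88.8 CPM in shControl libraries, and rose 1.28-fold (adjusted p = 0.00191). Its value is uncertain in part, since KIF4B is a near-identical copy and how the counting handled reads that fit both was not given in the sources used here, and without shCDK5RAP3 replicate 2 the adjusted p was 0.0588. KIFC1, a minus-end motor that bundles spindle poles, was at 49.7 and 44.7 CPM in shCDK5RAP3 libraries, against 41.0 and 36.8 CPM in shControl libraries (log2 fold change 0.28 ± 0.09, adjusted p = 0.0387). The KIFC1 groups stood close together, and the call was lost without shCDK5RAP3 replicate 1 (adjusted p = 0.249), shCDK5RAP3 replicate 2 (0.0961) or shControl replicate 2 (0.160).

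KIF23, on chromosome 15 (GRCh38, 69414246 to 69448427, plus strand), was the mitotic kinesin that fell. It is the motor of centralspindlin, the complex that bundles the spindle midzone and places the cleavage furrow. It was at 54.7 and 54.4 CPM in shCDK5RAP3 libraries, against 75.7 and 73.9 CPM in shControl libraries, which is 72.9% of the control level (log2 fold change -0.46 ± 0.07, adjusted p = 0.000697). The partner of KIF23 in centralspindlin, RACGAP1, fell further: it was at 54.5 and 54.5 CPM in shCDK5RAP3 libraries, against 152 and 149.9 CPM in shControl libraries, 36.1% of control (log2 fold change -1.47 ± 0.06, adjusted p = 1.26e-06). Both subunits of the complex were thus lower in every knockdown library than in either control. Another motor of the midzone, KIF20A, which brings the chromosomal passenger complex there, was at 144 and 146 CPM in shCDK5RAP3 libraries and 167 and 143 CPM in shControl libraries. These groups overlapped, and the log2 fold change of -0.10 ± 0.08 did not pass the test (adjusted p = 0.366), although it reached -0.21 with an adjusted p of 0.0360 without shControl replicate 2. Within each library, KIF2C stood at 3.47 and 3.32 times KIF23 in the knockdown and 1.50 and 1.62 times KIF23 in the control, a pair chosen after its values were seen.

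The other mitotic motors did not pass the test. KIF11, the tetrameric motor that pushes the spindle poles apart, was at 127 and 116.6 CPM in shCDK5RAP3 libraries, against 130.2 and 127.6 CPM in shControl libraries (adjusted p = 0.379). KIF15, which can take over part of that task, was at 37.2 and 40.4 CPM in shCDK5RAP3 libraries, against 39.0 and 39.7 CPM in shControl libraries (adjusted p = 0.867). KIF14, a motor of late cytokinesis, was at 59.4 and 63.0 CPM in shCDK5RAP3 libraries, against 60.0 and 58.9 CPM in shControl libraries (adjusted p = 0.671). For these 3 motors the difference was within the spread between libraries. CENPE, the kinetochore motor that carries chromosomes to the spindle equator, was at 78.1 and 82.0 CPM in shCDK5RAP3 libraries, against 98.0 and 86.8 CPM in shControl libraries (log2 fold change -0.21 ± 0.08, adjusted p = 0.0578). KIF18A, which damps chromosome movements at the metaphase plate, was at 36.8 and 32.9 CPM in shCDK5RAP3 libraries, against 30.5 and 28.97 CPM in shControl libraries (log2 fold change 0.23 ± 0.10, adjusted p = 0.0873). CENPE passed without shControl replicate 2 (log2 fold change -0.29, adjusted p = 0.00728) and with library size only (adjusted p = 0.0326). The libraries of KIF11, CENPE, KIF18A and KIF4B did not overlap between groups. Yet none of the 4 passed the test with all libraries, TMM scaling and replicate numbers left out of the model. With replicate numbers in the model, CENPE and KIF18A passed the same edgeR test (adjusted p = 0.0105 and 0.0391). KIF4B had counts of 12 and 12 in shCDK5RAP3 libraries, against 29 and 15 in shControl libraries (adjusted p = 0.205), and KIF2B, a relative of KIF2C, was at 0 in all 4.

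**Figure D2:**
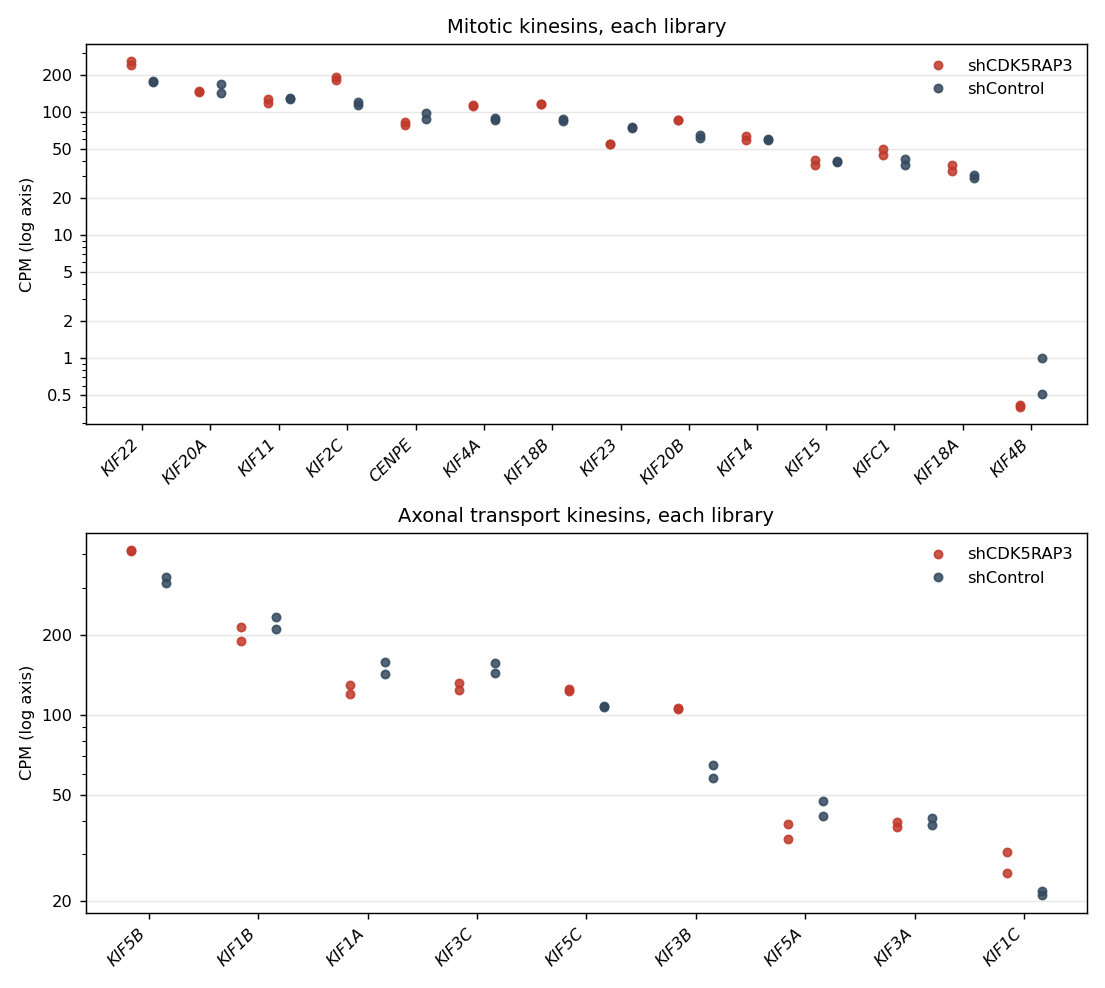
Levels (CPM, log axis) of the tested mitotic and axonal transport kinesins in each of the 2 shCDK5RAP3 and 2 shControl libraries. KIF2C, KIF22 and KIF3B have both knockdown points above both control points, KIF23 has them below, and those of KIF20A overlap.

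The promoters of the mitotic kinesins shared sequence features that the rule did not use. The cell cycle homology region (CHR), searched as TTTGAA or TTTAAA on both strands, is the element through which cell cycle genes are held silent before mitosis, and the CCAAT box (CCAAT, both strands) is often found upstream of it. The forms do not overlap each other, and TTTAAA reads the same on both strands. RefSeq promoters, 250 bases before to 50 after the start, matched 39 of the 49 members. A CHR was present in 13 of 15 mitotic kinesins (86.7%) and 1 of 8 axonal transport kinesins with a promoter (12.5%), against 21.5% of the 11949 tested genes with a promoter. Both a CHR and a CCAAT box were present in 10 of the 15 mitotic kinesins (66.7%), 1 of the 8 axonal transport kinesins (12.5%) and 9.02% of tested genes. In the 13 mitotic promoters the nearest CHR was centred between 59.5 bases before and 26.5 bases after the start. The mitotic kinesins without a match were KIF22 and KIF2B. KIF4A and its near-identical copy KIF4B are both counted. Their windows share a near-identical stretch that holds a CCAAT box and the CHR, so they are not separate cases. Of the 13 genes with a CHR, 5 rose, 1 fell and 7 did not pass the test, beside 19.7% higher and 21.8% lower of all tested genes. The letters were thus found in promoters of genes of every outcome.

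The following promoters show this element in the mitotic kinesin that rose most (KIF2C), another that rose (KIF18B), the 1 that fell (KIF23) and 1 that did not pass (KIF20A), with the axonal transport kinesin KIF3B, which rose and has no CHR match, set beside them. Each is the RefSeq sequence of GRCh38.p14 read 5′ to 3′ on the gene's strand, 250 bases before the start and 30 after it, and capitals mark matches to the CHR or the CCAAT box, which reads ATTGG where the CCAAT box lies on the other strand.
KIF2C, chr1:44739587-44739866, plus strand: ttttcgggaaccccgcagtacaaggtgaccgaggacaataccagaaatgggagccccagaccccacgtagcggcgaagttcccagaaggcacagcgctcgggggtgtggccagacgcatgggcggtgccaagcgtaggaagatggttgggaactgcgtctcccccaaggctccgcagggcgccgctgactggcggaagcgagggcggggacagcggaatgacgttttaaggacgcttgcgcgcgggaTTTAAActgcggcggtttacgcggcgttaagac
KIF18B, chr17:44947744-44948023, minus strand: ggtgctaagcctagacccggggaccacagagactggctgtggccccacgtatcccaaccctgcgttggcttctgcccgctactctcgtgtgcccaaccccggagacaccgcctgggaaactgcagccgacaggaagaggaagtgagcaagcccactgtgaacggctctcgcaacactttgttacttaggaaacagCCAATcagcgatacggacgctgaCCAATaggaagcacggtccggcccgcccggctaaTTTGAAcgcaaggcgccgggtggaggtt
KIF23, chr15:69414099-69414378, plus strand: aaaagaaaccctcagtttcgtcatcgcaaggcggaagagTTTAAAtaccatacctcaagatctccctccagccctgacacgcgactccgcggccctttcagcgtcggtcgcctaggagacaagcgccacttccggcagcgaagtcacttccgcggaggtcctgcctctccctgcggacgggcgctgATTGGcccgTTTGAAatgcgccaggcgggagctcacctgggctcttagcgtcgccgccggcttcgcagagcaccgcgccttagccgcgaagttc
KIF20A, chr5:138178862-138179141, plus strand: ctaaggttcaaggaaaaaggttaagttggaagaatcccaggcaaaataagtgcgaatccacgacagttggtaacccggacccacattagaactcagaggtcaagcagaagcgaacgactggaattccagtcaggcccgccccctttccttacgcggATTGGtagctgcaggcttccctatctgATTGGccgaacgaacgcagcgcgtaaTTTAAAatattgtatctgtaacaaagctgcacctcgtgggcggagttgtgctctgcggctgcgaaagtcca
KIF3B, chr20:32277401-32277680, plus strand: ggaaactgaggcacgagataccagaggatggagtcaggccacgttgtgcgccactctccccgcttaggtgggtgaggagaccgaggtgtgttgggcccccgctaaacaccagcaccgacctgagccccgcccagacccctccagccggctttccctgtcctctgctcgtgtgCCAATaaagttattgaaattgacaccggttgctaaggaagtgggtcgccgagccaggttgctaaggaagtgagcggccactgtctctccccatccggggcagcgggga
In KIF2C the CHR lies across the start itself and no CCAAT box is in the window, while in KIF18B and KIF20A a pair of CCAAT boxes precedes the CHR. KIF23 has 2 CHR matches, the nearer of them just downstream of a CCAAT box. The match is a description of letters and does not show that a factor binds there.

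**Figure D3:**
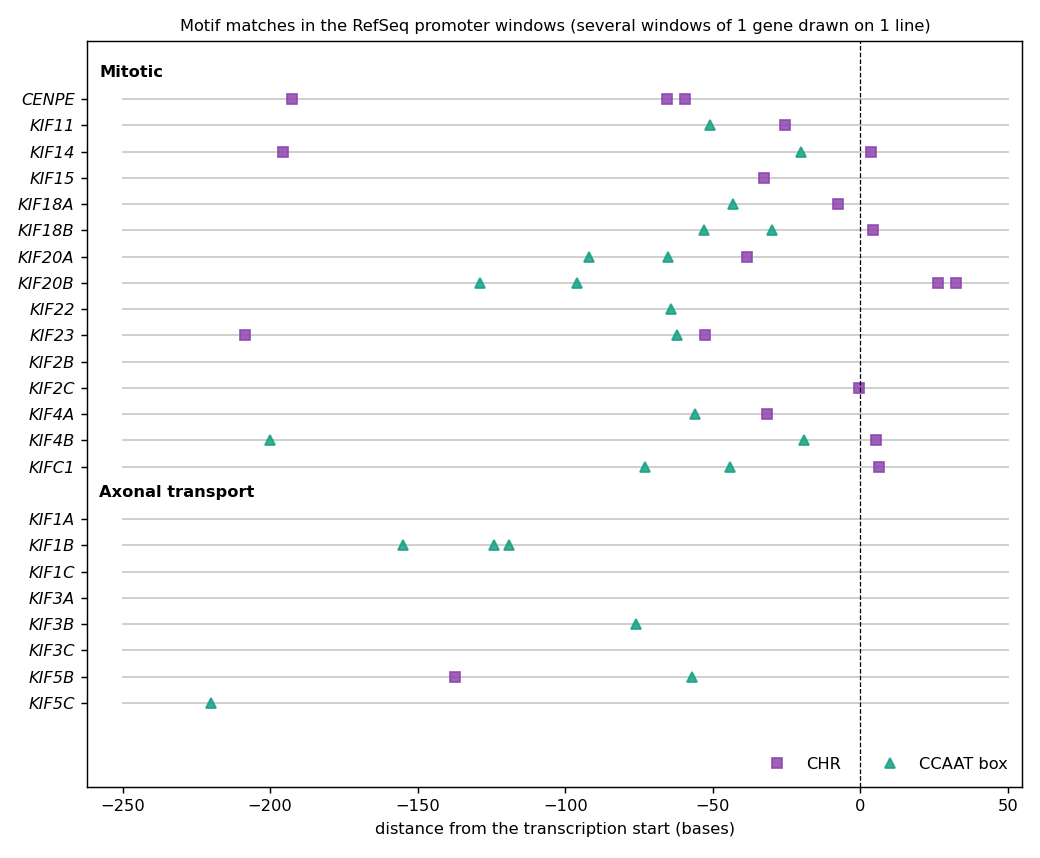
Positions of CHR and CCAAT matches, in bases from the RefSeq start (negative is upstream), in promoters of mitotic and axonal transport kinesins. The nearest CHR matches of the 13 mitotic genes lie between -59.5 and 26.5 bases, and the axonal transport kinesins have a CHR match in 1 of 8 genes.

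Other mitotic genes were taken from a list of 18 spindle and cytokinesis partners, all tested, of which 10 rose, 5 fell and 3 did not pass, beside the 19.7% higher and 21.8% lower of all tested genes. RACGAP1, HMMR and MKI67 fell by more than any partner rose, and INCENP and NUMA1 fell by less than PLK1 rose. HMMR, a spindle assembly factor, was at 38.0 and 39.3 CPM in shCDK5RAP3 libraries, against 83.2 and 84.2 CPM in shControl libraries (log2 fold change -1.11 ± 0.07, adjusted p = 7.45e-06). MKI67, which coats mitotic chromosomes, was at 354 and 308 CPM in shCDK5RAP3 libraries, against 628 and 481 CPM in shControl libraries (log2 fold change -0.74 ± 0.12, adjusted p = 0.000977), a call lost without shCDK5RAP3 replicate 2 (adjusted p = 0.0648). PLK1, the kinase that recruits centralspindlin regulators to the midzone, was at 177 and 176 CPM in shCDK5RAP3 libraries, against 125 and 131 CPM in shControl libraries (log2 fold change 0.46 ± 0.06, adjusted p = 0.000426). The partners, like the kinesins, therefore held genes on both sides. RACGAP1, HMMR and MKI67 fell by more than KIF23, the only mitotic kinesin that fell and passed the test.

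All 9 axonal transport kinesins were tested: 4 rose (KIF3B, KIF5B, KIF1C and KIF5C), 3 fell (KIF1A, KIF3C and KIF5A), and KIF1B and KIF3A did not pass. KIF3B, on chromosome 20 (GRCh38, 32277664 to 32335011, plus strand), is a motor subunit of kinesin-2, which pairs with KIF3A and carries cargo in axons and into cilia. It was at 106 and 105 CPM in shCDK5RAP3 libraries, against 65.1 and 57.8 CPM in shControl libraries, the largest rise among the members that passed the test (log2 fold change 0.78 ± 0.07, adjusted p = 6.66e-05). Its usual partner KIF3A did not pass the test, at 37.9 and 39.7 CPM in shCDK5RAP3 libraries and 41.0 and 38.7 CPM in shControl libraries (log2 fold change -0.04 ± 0.08, adjusted p = 0.748), and its groups overlapped. KIF3C, a neuronal motor of the same family, was at 131 and 125 CPM in shCDK5RAP3 libraries, against 157 and 143 CPM in shControl libraries (log2 fold change -0.23 ± 0.07, adjusted p = 0.0277). KIFAP3, the adaptor that joins the kinesin-2 pair to cargo, was at 21.3 and 22.6 CPM in shCDK5RAP3 libraries, against 24.4 and 26.6 CPM in shControl libraries, and did not pass (adjusted p = 0.126). Within a library, KIF3B stood at 2.80 and 2.65 times KIF3A in the knockdown and 1.59 and 1.49 times KIF3A in the control. KIF3B was at 0.807 and 0.845 times KIF3C in the knockdown and 0.415 and 0.404 times KIF3C in the control. The messenger RNAs of the kinesin-2 subunits thus stood in other proportions to each other in the knockdown, in CPM not divided by length. The ratios given here and below were chosen after the values were seen and carry no test.

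Kinesin-1 heavy chains form the main motor of fast axonal transport. KIF5B, the heavy chain made in most tissues (GRCh38 chromosome 10, 32009010 to 32056431, minus strand), was at 411 and 415 CPM in shCDK5RAP3 libraries, against 328 and 314 CPM in shControl libraries (log2 fold change 0.36 ± 0.06, adjusted p = 0.00111). KIF5A, the neuronal heavy chain, was at 38.9 and 34.1 CPM in shCDK5RAP3 libraries, against 47.7 and 41.8 CPM in shControl libraries (log2 fold change -0.29 ± 0.10, adjusted p = 0.0445). KIF5C, also enriched in neurons, was at 123.1 and 125 CPM in shCDK5RAP3 libraries, against 108 and 107 CPM in shControl libraries (log2 fold change 0.21 ± 0.06, adjusted p = 0.0227). The heavy chains therefore did not share a direction, and KIF5B stood at 10.6 and 12.1 times KIF5A in the knockdown and 6.88 and 7.50 times KIF5A in the control.

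Kinesin-3 motors carry vesicles and mitochondria. KIF1A, the motor of synaptic vesicle precursors, was at 129.8 and 120.1 CPM in shCDK5RAP3 libraries, against 158 and 143 CPM in shControl libraries (log2 fold change -0.27 ± 0.08, adjusted p = 0.0183). KIF1C was at 25.6 and 30.5 CPM in shCDK5RAP3 libraries, against 21.9 and 21.1 CPM in shControl libraries (log2 fold change 0.39 ± 0.11, adjusted p = 0.022). KIF1B was at 213 and 189 CPM in shCDK5RAP3 libraries, against 232 and 209 CPM in shControl libraries, and did not pass (log2 fold change -0.13 ± 0.08, adjusted p = 0.214). The KIF1B groups overlapped, and those of KIF1A and KIF1C did not.

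Of the 7 axonal transport calls, those of KIF3B and KIF5B alone stood with every library left out in turn. Without shCDK5RAP3 replicate 1 the adjusted p was 0.0769 for KIF1A, 0.116 for KIF3C, 0.0803 for KIF5A and 0.110 for KIF5C. Without shCDK5RAP3 replicate 2 it was 0.205 for KIF1A, 0.230 for KIF3C, 0.299 for KIF5A, 0.176 for KIF5C and 0.206 for KIF1C. Without shControl replicate 1 it was 0.0593 for KIF1A, 0.0987 for KIF3C and 0.195 for KIF5A, and without shControl replicate 2 it was 0.0559 for KIF5C and 0.0525 for KIF1C. KIF1A, KIF3C and KIF5A, the motors that fell, thus lost the call when any library except shControl replicate 2 was left out.

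Set side by side, 6 of 14 tested mitotic kinesins rose and 1 fell, while 4 of 9 axonal transport kinesins rose and 3 fell, against 19.7% and 21.8% of all tested genes. The median log2 fold change was 0.13 over the mitotic genes, with a range of -0.87 to 0.66, and -0.04 over the axonal transport genes, with a range of -0.29 to 0.78. The ranges of the lists overlap widely. Mitotic kinesins summed to 1330.1 and 1332 CPM in shCDK5RAP3 libraries, against 1173 and 1123 CPM in shControl libraries, and axonal transport kinesins to 1217 and 1183 CPM in shCDK5RAP3 libraries, against 1159 and 1075 CPM in shControl libraries. The mitotic sum divided by the axonal transport sum was 1.09 and 1.13 in the knockdown libraries and 1.01 and 1.05 in the control libraries. On mean log2 CPM, where every gene weighs the same, the mitotic list minus the axonal transport list was -0.71 and -0.69 in the knockdown libraries and -0.70 and -0.71 in the control libraries. With all 14 tested mitotic genes, KIF4B among them, the separation seen in the sums was not present on that scale. The mean difference between groups there was 0.01. That scale gives full weight to KIF4B, with counts of 12 and 12 in shCDK5RAP3 libraries and 29 and 15 in shControl libraries. KIF4B had the lowest log2 fold change of the mitotic list, -0.87 ± 0.51, which did not pass the test. The mean without it was not computed, so that scale does not show that the lists moved alike. With a filter that left KIF4B untested, the medians were 0.23 (mitotic) and -0.03 (axonal transport).

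Light chains and adaptors also moved in opposite directions. KIFBP, on chromosome 10 (GRCh38, 68988721 to 69043544, plus strand), binds the motor domains of several kinesins, among them KIF1A, KIF15 and KIF18A, and keeps them off microtubules. It was at 20.1 and 19.5 CPM in shCDK5RAP3 libraries, against 34.3 and 39.5 CPM in shControl libraries, 53.5% of control (log2 fold change -0.90 ± 0.10, adjusted p = 0.000179). Of those 3 motors, KIF1A was lower and KIF15 and KIF18A did not pass, as given above. KLC1, the light chain enriched in neurons, was at 248 and 223 CPM in shCDK5RAP3 libraries, against 181 and 193 CPM in shControl libraries (log2 fold change 0.33 ± 0.07, adjusted p = 0.00613). KLC4 was at 21.3 and 24.1 CPM in shCDK5RAP3 libraries, against 33.5 and 32.2 CPM in shControl libraries (log2 fold change -0.54 ± 0.10, adjusted p = 0.00259). KLC2 was at 85.6 and 87.5 CPM in shCDK5RAP3 libraries, against 72.9 and 77.1 CPM in shControl libraries (log2 fold change 0.21 ± 0.07, adjusted p = 0.0344), and KLC3 was at 0 in all 4. Within a library KLC1 stood at 11.6 and 9.25 times KLC4 in the knockdown and 5.40 and 6.002 times KLC4 in the control, so the light chains too stood in other proportions. The KLC1 value is uncertain, since 29.9% of its exon bases are shared with XRCC3 on the opposite strand and whether counting used strand was not given in the sources used here. Exons of CUL7 and MRPL2 on the opposite strand overlap KLC4 by 329 and 373 bases. Without shCDK5RAP3 replicate 1 the adjusted p was 0.0965 for KLC1 and 0.136 for KLC2. For KLC2 it was 0.215 without shCDK5RAP3 replicate 2 and 0.126 without shControl replicate 1.

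**Figure D4:**
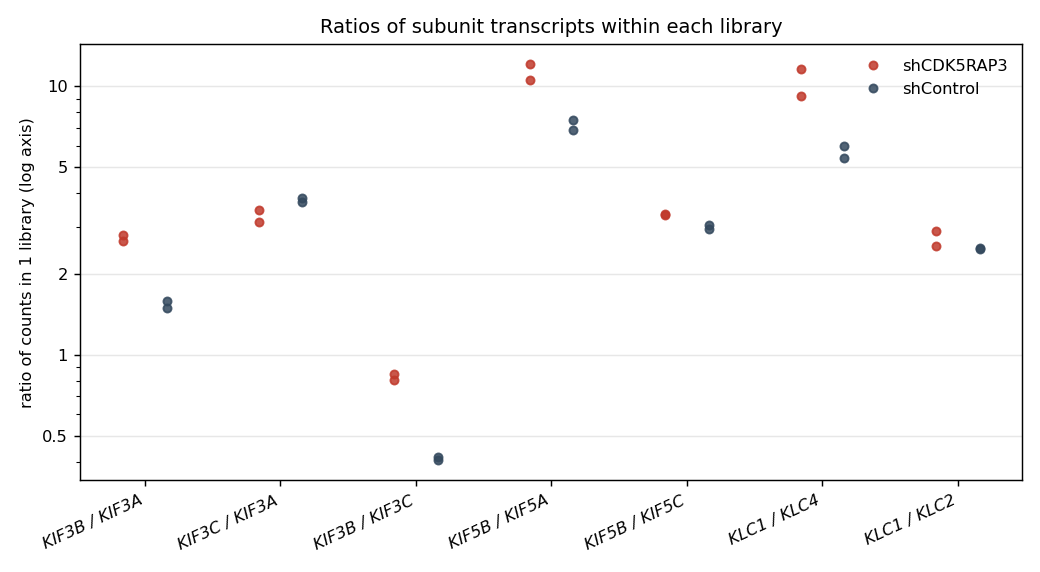
Ratios of counts between kinesin genes within each library (log axis), with the 2 knockdown libraries left of the 2 control libraries for each ratio. KIF3B over KIF3A is 2.80 and 2.65 in shCDK5RAP3 libraries against 1.59 and 1.49 in shControl libraries, and KLC1 over KLC4 is 11.6 and 9.25 against 5.40 and 6.002.

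Of the 12 remaining kinesins outside the cilium group, 9 were tested, of which 4 rose, 2 fell and 3 did not pass. Of all tested genes, 19.7% were higher and 21.8% lower. KIF13B (GRCh38 chromosome 8, 29067279 to 29263124, minus strand), a kinesin-3 motor that binds membrane-associated guanylate kinases, was at 19.0 and 18.8 CPM in shCDK5RAP3 libraries, against 36.5 and 36.1 CPM in shControl libraries (log2 fold change -0.94 ± 0.09, adjusted p = 7.13e-05). KIF21A (GRCh38 chromosome 12, 39293228 to 39443390, minus strand), which holds back microtubule growth at the cell cortex, was at 472 and 447 CPM in shCDK5RAP3 libraries, against 689 and 621 CPM in shControl libraries, 70.1% of control (log2 fold change -0.51 ± 0.07, adjusted p = 0.000366). These were the lower ones, and KIF21A had the highest level of all members in the control per kilobase of exon, with a mean of 45.4 CPM per kilobase in the knockdown and 64.7 CPM per kilobase in the control. On the same scale KIF5B had 70.2 CPM per kilobase in the knockdown and 54.6 CPM per kilobase in the control. Per kilobase of the longest transcript the knockdown means were 69.6 CPM per kilobase for KIF21A and 70.2 CPM per kilobase for KIF5B. The lead of KIF5B over KIF21A in the knockdown is thus nearly gone with that length. With that length KIF22 stood above KIF5B in both groups, at a mean of 99.2 CPM per kilobase in the knockdown and 70.2 CPM per kilobase in the control.

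KIF2A, a microtubule depolymerase of neurons and spindle poles, was at 108 and 112 CPM in shCDK5RAP3 libraries, against 80.8 and 75.6 CPM in shControl libraries (log2 fold change 0.49 ± 0.07, adjusted p = 0.000457). It shares 428 exon bases with IPO11 on the same strand. KIFC3, a minus-end motor, was at 33.2 and 34.1 CPM in shCDK5RAP3 libraries, against 24.0 and 24.2 CPM in shControl libraries (log2 fold change 0.48 ± 0.09, adjusted p = 0.0025, and 0.0521 without shCDK5RAP3 replicate 2). KIF16B, a motor of early endosomes, was at 25.01 and 21.5 CPM in shCDK5RAP3 libraries, against 18.2 and 17.5 CPM in shControl libraries (log2 fold change 0.38 ± 0.11, adjusted p = 0.0245). That call was lost without shCDK5RAP3 replicate 1 (adjusted p = 0.187), shCDK5RAP3 replicate 2 (0.0589) or shControl replicate 2 (0.0583). KIF26A, an unusual family member that binds microtubules without hydrolysing ATP, was at 267 and 283 CPM in shCDK5RAP3 libraries, against 224 and 228 CPM in shControl libraries (log2 fold change 0.28 ± 0.06, adjusted p = 0.00547, and 0.107 without shCDK5RAP3 replicate 2). KIF2A is a close relative of the mitotic depolymerase KIF2C, and both rose, a grouping made after the values were seen.

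Among the 7 kinesins of the cilium, 5 were tested and 1 passed, beside 41.5% of all tested genes. KIF24, a centriolar motor that holds back cilium formation, was at 23.6 and 19.1 CPM in shCDK5RAP3 libraries, against 17.4 and 15.2 CPM in shControl libraries (log2 fold change 0.39 ± 0.14, adjusted p = 0.0467). The call was lost without shCDK5RAP3 replicate 1 (adjusted p = 0.320), shCDK5RAP3 replicate 2 (0.0681) or shControl replicate 2 (0.150). The log2 fold changes of the 5 tested genes ranged from -0.89 for KIF17 to 0.45 for KIF27. KIF7, of the hedgehog pathway, came next to the threshold with an adjusted p of 0.051. Its value is uncertain, since it shares 589 exon bases with TICRR on the opposite strand and the use of strand in counting was not given.

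Motors need adaptors and a partner that runs the other way. A list of 19 transport partners, which hold cargo on kinesins, had 18 tested genes, of which 3 rose, 8 fell and 7 did not pass, with a median log2 fold change of -0.16. Over all tested genes 19.7% were higher and 21.8% lower, so that the partners' 3 of 18 higher lies near the share of all genes. Their 8 of 18 lower lies above it, a gap that was not tested. GRIP1, which links glutamate receptors to kinesin-1, was at 3.33 and 3.41 CPM in shCDK5RAP3 libraries, against 14.8 and 13.4 CPM in shControl libraries (log2 fold change -2.07 ± 0.16, adjusted p = 2.42e-05). MAPK8IP2, a scaffold bound by kinesin light chains, was at 46.4 and 45.4 CPM in shCDK5RAP3 libraries, against 77.1 and 89.96 CPM in shControl libraries (log2 fold change -0.86 ± 0.09, adjusted p = 8.56e-05). TRAK2, which ties mitochondria to kinesin-1, was at 71.3 and 67.7 CPM in shCDK5RAP3 libraries, against 118 and 103 CPM in shControl libraries (log2 fold change -0.67 ± 0.08, adjusted p = 0.00023). SYBU, which joins syntaxin cargo to kinesin-1, was at 25.9 and 23.6 CPM in shCDK5RAP3 libraries, against 40.0 and 38.2 CPM in shControl libraries (log2 fold change -0.66 ± 0.09, adjusted p = 0.000538). These 4 were named for having the largest changes of the list, and the partners that rose were RHOT2, MAPK8IP3 and CLSTN1.

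Dynein, the motor that carries cargo back to the cell body, was read through 24 subunits, dynactin parts and regulators, of which 8 rose, 6 fell and 10 did not pass. Over all tested genes 19.7% were higher and 21.8% lower. The 6 of 24 lower lies near that share, and the 8 of 24 higher lies above it, a gap that was not tested. DYNC1I1, the neuronal intermediate chain, was at 6.97 and 8.52 CPM in shCDK5RAP3 libraries, against 22.5 and 24.5 CPM in shControl libraries (log2 fold change -1.60 ± 0.14, adjusted p = 3.89e-05). NDEL1, a dynein regulator, was at 33.1 and 30.6 CPM in shCDK5RAP3 libraries, against 17.2 and 16.8 CPM in shControl libraries (log2 fold change 0.90 ± 0.10, adjusted p = 0.000144). DYNLRB1, a light chain, was at 78.0 and 84.2 CPM in shCDK5RAP3 libraries, against 41.9 and 49.4 CPM in shControl libraries (log2 fold change 0.83 ± 0.09, adjusted p = 0.000145). These 3 genes had the largest changes of the list. HOOK1, an adaptor of dynein, was at 3.71 and 3.18 CPM in shCDK5RAP3 libraries, against 5.53 and 6.40 CPM in shControl libraries (adjusted p = 0.0119, and 0.105 without shCDK5RAP3 replicate 2).

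**Figure D5:**
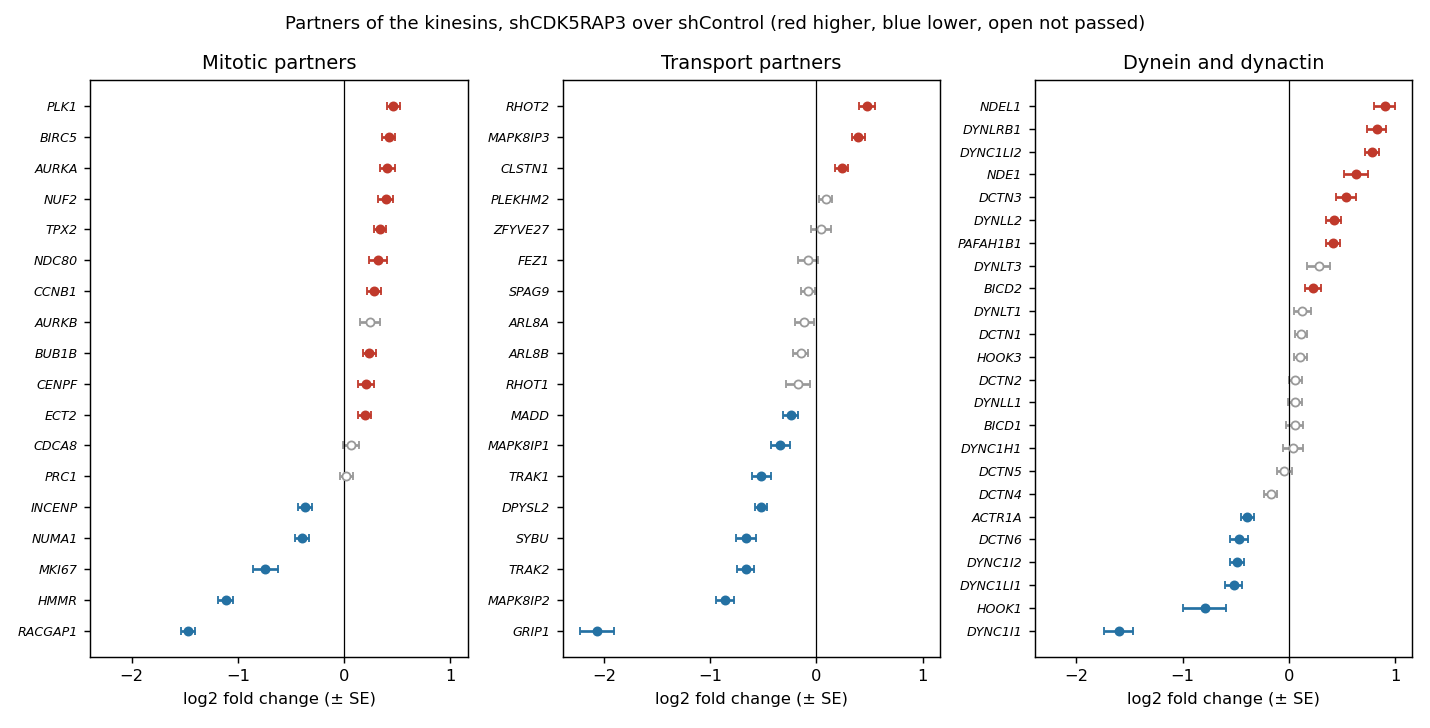
Log2 fold change (shCDK5RAP3 over shControl, with standard error) of the tested spindle and cytokinesis partners, transport partners, and dynein and dynactin genes, filled where the gene passed the test. GRIP1 at -2.07, DYNC1I1 at -1.60 and RACGAP1 at -1.47 lie lowest in their panels, and NDEL1 at 0.90 lies highest among the dynein genes.

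A last property of the members is the words in their 3′ untranslated regions (UTRs). The 7-letter words AACACCT and ACACCTA had been noted in earlier results of these data, where genes that carry them were more often lower in the knockdown. In the longest annotated 3′ UTR of GENCODE 29, 2076 of 13560 tested protein-coding genes (15.3%) held either word, and their median log2 fold change was -0.24, against 0.01 for genes without. Genes with a word also had longer 3′ UTRs, with a median of 3086 bases against 1173 bases. Among the 42 tested kinesin genes, 5 (11.9%) held AACACCT and 0 held ACACCTA. The contrast restates how the words were noted and is no separate support for them. Of the 2076 genes with a word, 884 were lower and 295 higher in the knockdown. Of the 5 kinesin genes, KIF3B and KLC1 rose, and KIF11, KIF15 and KIF26B did not pass. None of the 8 kinesin genes that fell holds either word, but too few members hold one for a conclusion. KIF6, which was not tested, holds ACACCTA. The sites of the 5 tested members are shown in lower case with the word in capitals.
KIF3B: tactggagacAACACCTcagaccatct
KLC1: gtgaacttttAACACCTgagagaccca
KIF11: gaaatcttttAACACCTttttagtggt
KIF15: tggtggttccAACACCTgcagtgagtt
KIF26B: gcaatcacagAACACCTcgcaggatct
Each site has 10 bases of transcript on either side of the word, 5′ to 3′. The 10-base flanks have no feature that was tested, and the presence of a word does not show that it is used.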

How the data were processed

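RNA-seq counts came from total RNA of 4 libraries of SK-N-BE(2) cells, per the labels' protocols. The authors deposited unscaled counts, whole numbers in a single table by Ensembl gene. The submitters' processing notes name HISAT2 2.2.0, StringTie and hg38. The annotation, the use of strand, the handling of multi-mapping reads, and whether counts came straight from reads or through StringTie's estimates were not given in the sources used here.

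Symbols were current gene names matched by Ensembl identifier, or the GENCODE 29 name where no current name was found. KIFBP is named KIF1BP in GENCODE 29. Counts were fitted in R 4.3.3 with edgeR 4.0.16 (TMM, default filter by group, quasi-likelihood test without a replicate block, Benjamini-Hochberg adjustment over 18775 genes, threshold 0.05). CPM used TMM-scaled totals. The biological coefficient of variation was 0.0959. Replicates differed by more than sampling noise. The fit was tested on simulated data with known changes.

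The members, roles, partner lists and markers were chosen with earlier results of these data known. Named were all mitotic, axonal transport, light chain and adaptor genes, other members past the threshold, and up to 4 partners per list with the largest change past the threshold. Protein sequences were not used here. Alternatives were other scaling, other filters, DESeq2 1.42.0, limma 3.58.1 and libraries left out.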

Additional observations from a re-analysis of the deposited data

How the results depend on the processing

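The direction and call of CDK5RAP3 held in every setting tried, with log2 fold changes of -0.77 to -0.60 as single libraries were left out. Of the 25 kinesin calls, 0 were lost with RLE scaling, a CPM of 1 in 2 libraries, limma or the robust fit, 1 with upper-quartile scaling, 3 with library size only, 5 with DESeq2 and 10 without a filter. Without a filter 10 members were higher and 5 lower (axonal transport 2 higher, 0 lower), and at an adjusted p of 0.01 11 were higher and 5 lower (axonal transport 2 higher, 0 lower). Over all genes the 3704 higher and 4088 lower calls became 1966 and 2522 without a filter, 2232 and 2604 without shCDK5RAP3 replicate 1, and 1556 and 2196 without shCDK5RAP3 replicate 2.

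As single libraries were left out, 8 to 16 members were higher and 5 to 11 lower, mitotic kinesins 4 to 6 higher and 1 to 3 lower, and axonal transport kinesins 2 to 4 higher and 0 to 3 lower. Median log2 fold changes ran between 0.11 and 0.16 (mitotic) and between -0.08 and 0.0039 (axonal transport). A lone library was assumed to vary like the other group. The mitotic median was 0.17 with upper-quartile scaling, 0.23 with a CPM of 1 in 2 libraries (where KIF4B is not tested) and 0.25 with broader lists, and 2 mitotic kinesins were lower with library size only. Broader lists gave 7 axonal transport genes higher and 7 lower, with a median of -0.17. Small log2 fold changes changed sign: KIF15 to 0.0107 with upper-quartile scaling, and, as single libraries were left out, KIF14 between -0.0053 and 0.0942, KIF15 between -0.0846 and 0.0459, KIF20A between -0.209 and 0.0165, and KIF3A between -0.0817 and 0.0039 (0.0039 without shCDK5RAP3 replicate 1 and 3.92e-05 without shControl replicate 1). Other than through the libraries or genes removed, the cause was not tested.

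The labels do not say that equal replicate numbers share a culture or day, and same-numbered libraries had a deviation correlation of 0.0921 over 15508 genes, so the numbers were not used to pair libraries. With a replicate block, 4430 genes were higher and 4718 lower, 0 kinesin calls were lost, and 6 were gained, KIF18A and KIF7 higher and CENPE, KIF1B, KIF17 and KIFC2 lower, which gave 19 members higher and 12 lower, and 2 mitotic kinesins lower. KIF7 was also gained with RLE or upper-quartile scaling, a CPM of 1 in 2 libraries and the robust fit. Depth limits KIF6, KIF21B and KIF25, which had at most 14 counts in a library and were not tested.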
